A study of Mus musculus with 111 samples.

Results

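The genes described here are 38 genes of DNA break repair and damage sensing, listed by name and with no threshold on their response, and all 38 were measured among 15707 genes. They comprised 5 genes of end joining, 7 of single-strand break and base excision repair, 2 of nucleotide excision repair, 1 of mismatch repair (Msh6), 6 of damage sensing and checkpoint control, 11 of homologous recombination and 6 of the Fanconi anaemia pathway. Expression was measured in whole lungs of male C57BL6/J mice, 7 to 9 weeks old, that received either 2 U/kg of bleomycin or saline once as an intratracheal spray. Lungs were collected on days 1 and 2 (inflammation phase), 7 and 14 (active fibrosis phase) and 21, 28 and 35 (late fibrosis phase). Each group held 8 mice, 1 array per mouse, apart from 7 saline mice at day 14, where the authors had removed 1 mouse after a principal component analysis. Left and right lung were processed together, and fewer cells of a type cannot be told apart from less RNA per cell.

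Bleomycin cuts both single and paired strands of DNA. Broken ends can be rejoined directly by end joining, which works in any phase of the cell cycle, or copied from the sister chromatid by homologous recombination, which operates in S and G2 phase. The Fanconi anaemia proteins act with recombination at stalled replication forks and at crosslinks, base and nucleotide excision repair replace damaged bases and bulky lesions, and the kinases Atm and Atr signal damage to the checkpoint kinases Chek2 and Chek1. Many genes of recombination are transcribed as cells enter S phase, in part through E2F factors.

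Sites of the E2F kind were looked for in the RefSeq promoters (GRCm38.p6) of the members, since the genes that changed most act in S and G2 phase. Windows of 250 bases before and 50 bases after a start site were at hand for 30 members, in 35 windows. An 8-letter word TTTCCCGC, TTTCGCGC, TTTGCCGC or TTTGGCGC, on either strand, lay in 8 of these windows (22.9%) and in 2.26% of 32851 windows of all genes. Of the windows of recombination and Fanconi genes 5 of 18 held it, against 1 of 12 for end joining and excision repair. The matches are shown 5′ to 3′ on the strand of the gene, with the word, or its reverse complement, in capitals, 30 bases each.
Bard1, chr1:71103163-71103192, minus strand: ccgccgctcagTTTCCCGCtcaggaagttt
Brca2, chr5:150522442-150522471, plus strand: tttaggccacaGCGGGAAAcagacacacac
Rad51c, chr11:87404941-87404970, minus strand: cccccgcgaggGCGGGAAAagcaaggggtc
Rad51c, second start site, chr11:87404477-87404506, minus strand: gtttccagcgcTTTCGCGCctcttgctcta
Fancg, chr4:43010335-43010364, minus strand: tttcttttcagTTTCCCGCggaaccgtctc
Chek2, chr5:110839820-110839849, plus strand: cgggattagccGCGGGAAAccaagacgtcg
Msh6, chr17:87975054-87975083, plus strand: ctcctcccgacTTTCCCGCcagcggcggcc
Xrcc6, chr15:82016312-82016341, plus strand: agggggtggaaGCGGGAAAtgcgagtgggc
Rad51ap1, Brca1, Rad54l and Chek1 had a window without these exact words. Other forms of the site, and words cut by the edge of a window, were not looked for. The CCAAT box (letters CCAAT, which overlap none of the other words) lay in 48.6% of the member windows and 37.4% of all windows, and the letters TTTGAA of the cell cycle homology region lay in 8.57% and 17.9%. A match of letters is not a binding site, and binding was not measured.

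Levels are log2 RMA values, in which 1 unit is a 2-fold difference, and the most variable probeset stood for each gene. A gene is called higher or lower in bleomycin mice where it differed from the saline mice of that day in limma at an adjusted p under 0.05. The lungs carried their defining transcripts: surfactant protein C (Sftpc) lay between 14.31 and 14.53 and the club cell gene Scgb1a1 between 14.46 and 14.69 on every array. Among bleomycin mice, replicate 4 of day 21 and replicate 3 of day 35 were least like the other arrays of their groups (median correlation of 0.984 for each), and counts without each are given in the closing section.

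The largest differences of repair genes were increases at days 7 and 14. At day 7, 20 of 38 members were higher and 8 lower, where 25.7% of all genes were higher and 21.9% lower. At day 14, 14 were higher and 6 lower, where 21.9% and 19.7% of all genes were called. The members lower at day 7 were close to the share of all genes, and fell to 4 at day 7 and 2 at day 14 when the brightest probeset stood for each gene. All 14 members higher at day 14 and all 6 lower were called the same way at day 7. The median difference of the 38 members was 0.14 at day 7 and 0.05 at day 14, and that of all genes was -0.01 on both days. By more than 2-fold, Rad51ap1, Exo1, Brca1 and Chek1 were higher at day 7 and again at day 14, where 2.85% and 2.41% of all genes were. No member was lower by more than 2-fold on these days, where 0.477% and 0.751% of all genes were.

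Calls on the other days varied. At day 1, 2 members were higher and 6 lower, where 14.7% of all genes were higher and 16.7% lower. At day 2 there were 9 and 6 (14.2% and 13.1% of all genes), and all 9 that were higher were also higher at day 7. At day 21 there were 12 and 9 (20.5% and 18.9%), at day 28 4 and 5 (11.5% and 11.8%), and at day 35 7 and 8 (16.9% and 12.5%). Across the 7 days 22 members were higher on at least 1 day and 14 were lower, among them 4 that went both ways (Polb, Aptx, Brca2 and Fancd2). With the probeset used, Xrcc6, Prkdc, Parp1, Tdp1, Atr and Fanci were never called. Other probesets of 4 of them were: Xrcc6 was higher on days 7, 14, 21 and 35, Parp1 was higher at days 14 and 21 in 2 of its probesets and lower at day 1 in 2, Atr was lower at day 14 in 1 and on days 21, 28 and 35 in another, and Fanci was lower at days 1 and 2.

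**Figure D1:**
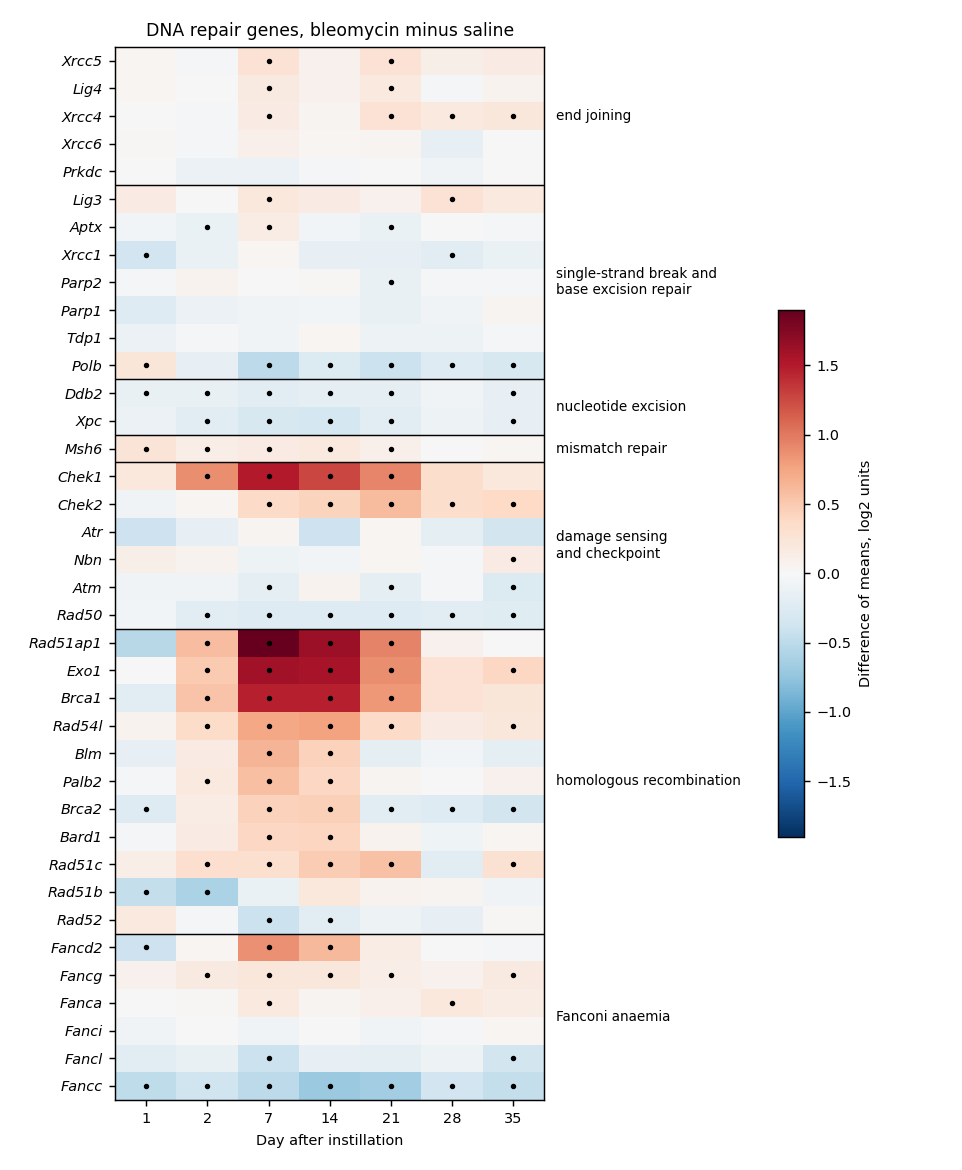
Difference between the mean log2 levels of bleomycin and saline mice for 38 repair genes (rows, by role) on 7 days (columns), red higher and blue lower in bleomycin; a dot marks an adjusted p under 0.05 in limma. The deepest red lies in the homologous recombination rows and Chek1 at days 7 and 14 (up to 1.90, Rad51ap1), while Fancc, Polb, Rad50 and Xpc are blue on most days.

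The end joining genes showed small increases. Of the 5, 3 were higher at day 7 and at day 21 (Xrcc5, Xrcc4 and Lig4), where 25.7% and 20.5% of all genes were. None was higher on days 1, 2 and 14, and none was lower on any day, with the probesets used. Xrcc5, which encodes the Ku80 subunit that binds broken ends, ranged at day 21 from 10.12 through a median of 10.20 to 10.47 in saline mice and from 10.12 through 10.43 to 10.92 in bleomycin mice. The groups overlapped, with 3 of 8 bleomycin mice above every saline mouse, and differed by 0.28 (SE 0.06, adjusted p = 0.000314).
Xrcc4, the partner of DNA ligase IV, lay at day 21 between 8.42 and 8.71 (median 8.51) in saline mice and between 8.72 and 8.98 (median 8.74) in bleomycin mice. The groups did not overlap, and the difference was 0.27 (SE 0.06, adjusted p = 9.97e-05). Lig4, the ligase itself, was higher by 0.19 at day 21 (SE 0.06, adjusted p = 0.00703), with 7 of 8 bleomycin mice above the saline range. Against all saline mice the day 7 difference of Lig4 was 0.09 and not called. Prkdc, the catalytic subunit of DNA-dependent protein kinase, had differences between -0.11 and 0.00 over the 7 days. Xrcc6, the Ku70 subunit, was among the dimmest 30% of genes with the probeset used, and its other, brighter probeset was higher on days 7, 14, 21 and 35 (0.29, 0.23, 0.21 and 0.13).

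Genes of single-strand break and base excision repair did not stand out by count. Of the 7, 2 were higher at day 7 (Lig3 and Aptx) and 1 lower (Polb), beside 25.7% and 21.9% of all genes. At day 21 none was higher and 3 were lower (Polb, Parp2 and Aptx), beside 20.5% and 18.9% of all genes. Polb, the gap-filling polymerase of base excision repair, ranged at day 7 from 8.65 through 8.86 to 9.11 in saline mice and from 8.17 through 8.37 to 8.56 in bleomycin mice. Every bleomycin mouse lay below every saline mouse (difference -0.49, SE 0.09, adjusted p = 6.84e-06). Polb was lower on all 5 days from day 7 and higher at day 1 (0.23), where the saline level was lowest (8.47 at day 1, 9.05 at day 21). Against all saline mice its day 1 difference was -0.10. This decrease depended on the probeset: 2 of the 4 Polb probesets were lower at day 7, with differences from -0.49 to -0.07, and the brightest was at 0.01 at day 14.

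Xrcc1, the scaffold of single-strand break repair, ranged at day 1 from 9.83 through 10.02 to 10.37 in saline mice and from 9.53 through 9.70 to 9.81 in bleomycin mice. The groups did not overlap (difference -0.37, SE 0.06, adjusted p = 6.23e-06). The saline mice of day 1 were themselves the highest of the saline groups, whose means ran from 9.53 at day 7 to 10.06 at day 1, and against all saline mice the day 1 difference was -0.05 and not called. Parp2, a sensor of strand breaks, was lower at day 21 alone (difference -0.14, SE 0.04, adjusted p = 0.00622), with 6 of 8 bleomycin mice below the saline range. Lig3, the ligase that partners Xrcc1, was higher at day 28 by 0.28 (SE 0.08, adjusted p = 0.00825), with 7 of 8 bleomycin mice above the saline range, but its brightest probeset stood at -0.03. The probeset used was dim (mean level 5.66). Of 5 Lig3 probesets 3 were higher at day 7 (-0.05 to 0.35) and 2 at day 14 (-0.04 to 0.30), and none was lower on these days. The brightest was lower at days 21 and 35 (-0.07 on each). The 2 higher at day 14 were not called at day 28 (-0.04 and 0.06). Aptx, which removes AMP from failed ligations, was higher at day 7 (0.14) and lower at days 2 and 21 (-0.12 and -0.13). Against all saline mice the day 7 difference of Aptx was 0.07 and not called.

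Both genes of damage recognition in nucleotide excision repair were lower, each on days 2, 7, 14, 21 and 35, and Ddb2 also at day 1. Xpc, which finds helix distortions, lay at day 14 between 9.84 and 10.11 (median 9.88) in 7 saline mice and between 9.46 and 9.73 (median 9.57) in 8 bleomycin mice. The groups did not overlap (difference -0.33, SE 0.06, adjusted p = 6.76e-06). Ddb2, its partner for ultraviolet lesions, lay at day 7 between 10.43 and 10.70 in saline mice and between 10.28 and 10.50 in bleomycin mice, with medians of 10.61 and 10.39. Of the bleomycin mice 7 of 8 were below the saline range (difference -0.21, SE 0.05, adjusted p = 0.000102). For Ddb2 1 of 2 probesets was lower at days 7 and 14, and the other, brighter one stood within 0.02 of no change. The brighter probeset was lower at days 1 and 21 (-0.15 and -0.11) and not called at days 2 and 35 (-0.05 and -0.08).
XPC and DDB2 are known as targets of p53 in human cells, while most p53 targets measured were higher. Of 21 p53 targets 15 were higher and none lower at day 1, where 14.7% and 16.7% of all genes were. At day 7, 16 were higher and 3 lower, where 25.7% and 21.9% of all genes were. Increases included the cell cycle inhibitor Cdkn1a (1.94 at day 14, SE 0.25), Ccng1 (2.01 at day 7, SE 0.18) and the death receptor Eda2r (2.17 at day 7, SE 0.23). Rrm2b, a ribonucleotide reductase subunit that supplies nucleotides for repair, was lower, by -0.42 at day 14 (SE 0.09).

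Msh6, the mismatch recognition protein, was the one repair gene here that was higher on each of the first 5 days sampled and on neither of the last. At day 1 it ranged from 10.75 through 10.82 to 11.00 in saline mice and from 10.94 through 11.10 to 11.32 in bleomycin mice. Of the bleomycin mice 6 of 8 lay above the saline range (difference 0.25, SE 0.04, adjusted p = 2.28e-06), and its differences on days 2 to 21 were between 0.10 and 0.18.

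Of the damage sensing genes the checkpoint kinases Chek1 and Chek2 were higher, Rad50 and Atm were lower, and Nbn and Atr were each called on 1 day or none. Chek1, the kinase that restrains entry into mitosis downstream of Atr, ranged at day 7 from 5.41 through 5.67 to 5.91 in saline mice and from 6.99 through 7.20 to 7.33 in bleomycin mice. The groups did not overlap, and the level was 2.83-fold higher (1.50, SE 0.17, adjusted p = 2.35e-12). It was already higher at day 2 (0.89), and stayed so at days 14 and 21 (1.27 and 0.93) but not at days 28 and 35 (0.33 and 0.20, not called). Chek2, the kinase downstream of Atm, was called on every day from day 7, and at day 21 lay between 8.18 and 8.95 (median 8.46) in saline mice and between 8.68 and 9.83 (median 9.04) in bleomycin mice. The groups overlapped, with 5 of 8 bleomycin mice above the saline range (0.60, SE 0.13, adjusted p = 0.000117).
Rad50, of the complex that holds and trims broken ends, was lower on every day from day 2, by -0.20 to -0.25. At day 7 it lay between 9.97 and 10.22 (median 10.14) in saline mice and between 9.70 and 10.10 (median 9.89) in bleomycin mice, and 7 of 8 bleomycin mice were below the saline range (adjusted p = 4.43e-05). Its partner Nbn was higher at day 35 alone (0.15). Atm, the kinase that the complex activates, was lower at days 7, 21 and 35. At day 35 its range was 8.36 to 8.57 (median 8.45) in saline mice and 7.96 to 8.38 (median 8.20) in bleomycin mice, with 7 of 8 bleomycin mice below the saline range (difference -0.26, SE 0.06, adjusted p = 0.000351). Atr had differences from -0.40 to 0.05 that were called on no day with the probeset used, while its brightest probeset was lower on days 21, 28 and 35 (-0.11, -0.15 and -0.15). Among saline mice the Atr mean moved from 7.13 at day 2 to 7.94 at day 14.

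Homologous recombination held the largest differences. Of its 11 genes 9 were higher at day 7 and 9 at day 14, where 25.7% and 21.9% of all genes were. The medians were 0.57 and 0.45, and Rad52 was the one gene lower on both days. Rad51ap1, which stimulates strand invasion, ranged at day 7 from 6.21 through 6.50 to 6.76 in saline mice and from 8.15 through 8.35 to 8.83 in bleomycin mice. All 8 bleomycin mice lay above the saline range, and the level was 3.72-fold higher (1.90, SE 0.23, adjusted p = 1.43e-11). Exo1, the nuclease that resects broken ends, ranged from 6.16 through 6.33 to 6.43 in saline mice and from 7.64 through 7.88 to 8.18 in bleomycin mice. Again no bleomycin mouse overlapped with saline, and the difference was 3.01-fold (1.59, SE 0.15, adjusted p = 7.26e-16). Brca1, which promotes resection, ranged from 7.14 through 7.38 to 7.66 and from 8.62 through 8.88 to 9.07. Its groups did not overlap either, and differed 2.78-fold (1.48, SE 0.16, adjusted p = 2.49e-13).
For Rad51ap1 4 of 4 probesets were higher at day 7 (0.69 to 1.90), for Exo1 3 of 3 (0.26 to 1.59), for Chek1 3 of 3 (0.98 to 1.50) and for Brca1 3 of 4 (-0.07 to 1.48).

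The partners of Brca1 in the same reaction moved less. Bard1, its ring finger partner, was higher by 0.40 at day 7 and 0.41 at day 14, and Palb2, which bridges Brca1 and Brca2, by 0.57 and 0.40. Brca2, which acts after resection, was higher at days 7 and 14 (0.44 and 0.45) and lower at days 1, 21, 28 and 35 (-0.25, -0.21, -0.24 and -0.35). Against all saline mice the day 1 and day 21 differences of Brca2 were -0.1 and -0.12 and not called. Rad54l, a motor protein of strand exchange, was higher by 0.73 and 0.76 at days 7 and 14, and the helicase gene Blm by 0.64 and 0.44. For Rad54l 1 of 2 probesets was called on these days, and the other stood at 0.16 and 0.14. Rad51c was higher on days 2, 7, 14, 21 and 35 (up to 0.56 at day 21), whereas Rad51b was lower at days 1 and 2. At day 2 Rad51b ranged from 7.80 through 8.04 to 8.45 in saline mice and from 7.25 through 7.42 to 7.82 in bleomycin mice. Of the bleomycin mice 7 of 8 were below the saline range (difference -0.60, SE 0.12, adjusted p = 5.76e-05). Rad52, which anneals single strands, had -0.41 at day 7 and -0.20 at day 14, and 1 of its 2 probesets was called.

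**Figure D2:**
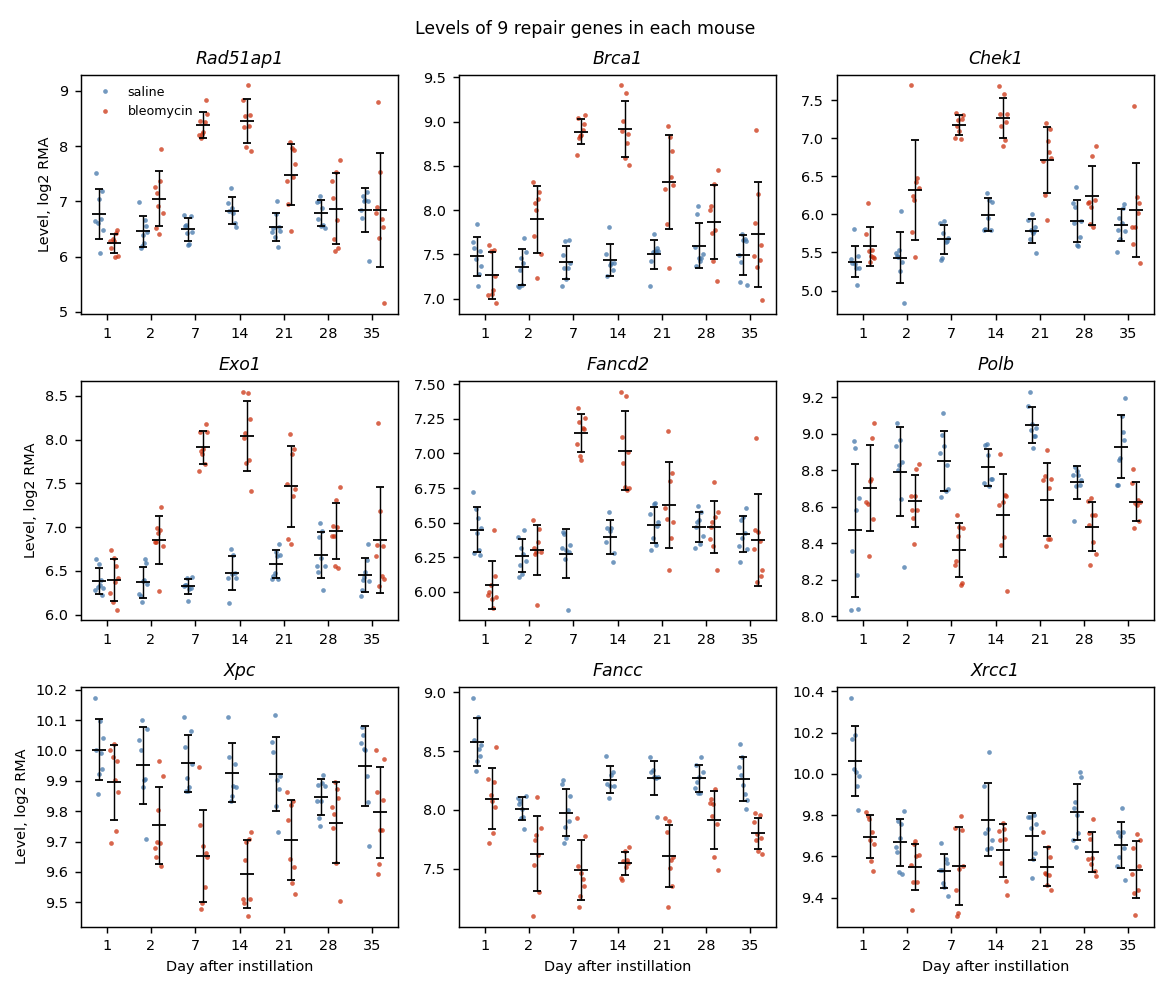
Log2 RMA level of 9 repair genes in every mouse by day after instillation, saline in blue and bleomycin in red, with mean and SD in black. For Rad51ap1, Brca1, Chek1, Exo1 and Fancd2 all bleomycin mice of days 7 and 14 stand above all saline mice. At day 35 bleomycin mice lie on both sides of the saline range of Rad51ap1 and Brca1. With the probesets plotted, Polb is called higher at day 1 and lower from day 7, Xpc lower on 5 days and Fancc on all 7. Xrcc1 differs at day 1, where saline is highest.

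The Fanconi anaemia genes did not move together. At day 7, 3 of 6 were higher (Fancd2, Fancg and Fanca) and 2 lower (Fancc and Fancl), with a median of 0.06. Among all genes 25.7% were higher and 21.9% lower on that day. For Fanca 1 of 2 probesets was higher at day 7, and the other, brighter one stood at 0.07 and was not called. Fancd2, which is monoubiquitinated and placed on chromatin at stalled forks, ranged at day 7 from 5.87 through 6.31 to 6.43 in saline mice and from 6.96 through 7.18 to 7.33 in bleomycin mice. The groups did not overlap, and the level was 1.83-fold higher (0.87, SE 0.10, adjusted p = 9.7e-13), after a lower level at day 1 (-0.40). Of 3 Fancd2 probesets 2 were higher at day 7 (0.15 to 0.87) and 3 at day 14 (0.22 to 0.62). Fanci, the partner of Fancd2 in that complex, had differences from -0.07 to 0.03 on all days, at a level among the dimmest 30% of genes, and its other, brighter probeset was lower at days 1 and 2 (-0.21 and -0.10). Fancg, of the core complex, was higher at day 7 by 0.22 (SE 0.05, adjusted p = 9.56e-05), from a saline median of 7.66 to a bleomycin median of 7.88, with 7 of 8 bleomycin mice above the saline range of 7.52 to 7.82.
Fancc, another core subunit, was lower on all 7 days, by -0.36 to -0.71, with the probeset used. At day 14 it ranged from 8.10 through 8.22 to 8.46 in 7 saline mice and from 7.41 through 7.56 to 7.68 in 8 bleomycin mice. Every bleomycin mouse lay below every saline mouse, and the level was 1.64-fold lower (difference -0.71, SE 0.10, adjusted p = 1.35e-08). Size and calls rest on 1 of its 2 probesets, since the brighter one was called on days 2, 7 and 21 (-0.24, -0.36 and -0.20) and not on days 1, 14, 28 and 35 (-0.10, -0.12, -0.11 and -0.08). Against all saline mice the day 1 difference was -0.14 and not called. Fancl, the ubiquitin ligase of the core, ranged at day 7 from 7.58 through 7.79 to 8.54 in saline mice and from 7.33 through 7.49 to 7.57 in bleomycin mice, a difference of -0.41 (SE 0.13, adjusted p = 0.00522). Its direction is not settled, because its other and brighter probeset was higher at day 7, by 0.17.

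Set against each other, recombination and Fanconi genes taken as 1 class were higher in the active fibrosis phase, and end joining and excision repair genes had medians near 0. The class was carried by recombination, since the 6 Fanconi genes had medians of 0.06 and 0.03 at days 7 and 14. Of the 17 recombination and Fanconi genes 12 were higher and 3 lower at day 7, and 11 and 2 at day 14, with medians of 0.40 and 0.41. Of the 14 genes of end joining and excision repair 5 were higher and 3 lower at day 7, with the probesets used. At day 14 none was higher and 3 were lower, and the medians at days 7 and 14 were 0.02 and -0.01. Among all genes 25.7% were higher and 21.9% lower at day 7, and 21.9% and 19.7% at day 14. Unused probesets of this class were higher at day 14 for Xrcc6 (0.23), Lig3 (0.30 and 0.21) and Parp1 (0.27 and 0.21). For Polb 2 of 4 probesets were lower on that day.
To compare the classes within a mouse, the levels of each gene were centred over all arrays and averaged by class. At day 7 the mean of recombination and Fanconi genes minus that of end joining and excision genes lay between -0.14 and -0.05 in saline mice and between 0.29 and 0.41 in bleomycin mice, and at day 14 between -0.22 and -0.04 and between 0.21 and 0.53. No bleomycin mouse overlapped with saline on either day, and the groups differed by 0.47 and 0.49. At day 2 and day 21 6 of 8 bleomycin mice lay above the saline range (differences of 0.19 and 0.20), and at day 1 none did (-0.10). At day 35 bleomycin mice ran from -0.43 to 0.38 around a saline range of -0.13 to 0.01, and the means differed by 0.02. Replicate 3 lay far above the saline range and replicate 8 far below it, while the other bleomycin mice lay within it.

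**Figure D3:**
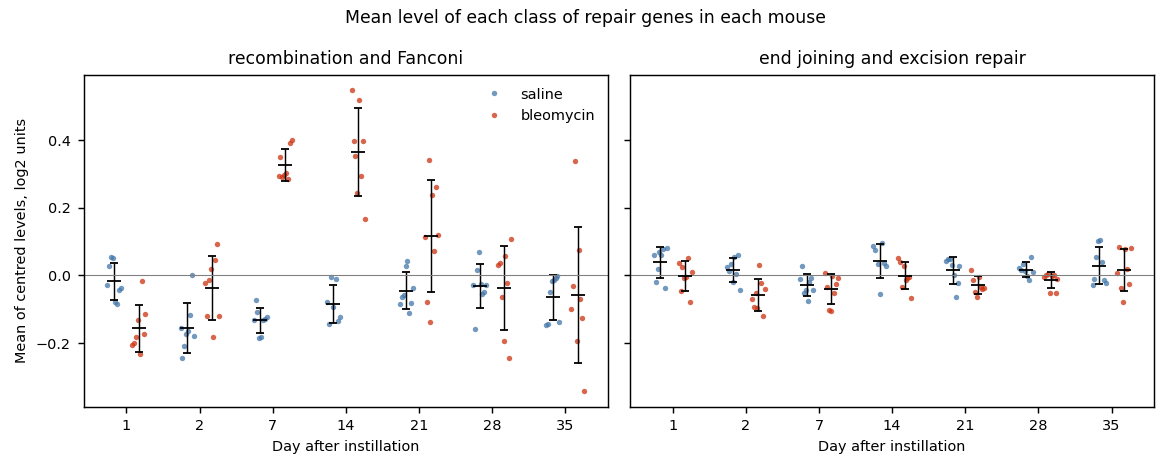
Mean centred log2 level of 17 recombination and Fanconi genes (left) and 14 end joining and excision repair genes (right) in every mouse by day, saline in blue and bleomycin in red, with mean and SD in black. On the left the bleomycin mice of days 7 and 14 lie wholly above saline, while on the right the groups overlap on every day.

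The change of the response between phases was tested directly. The response of days 7 and 14 exceeded that of days 1 and 2 for 15 members and fell short of it for 4, where 20.4% and 15.8% of all genes were called. Of these 15, 9 were recombination genes, led by Rad51ap1 (1.73, SE 0.23), Brca1 (1.32, SE 0.16) and Exo1 (1.32, SE 0.15). From the active to the late fibrosis phase 11 members declined and 2 increased (14.9% and 11.9% of all genes), and 8 of the 11 were recombination genes, with Rad51ap1 at -1.42 (SE 0.21) and Brca2 at -0.71 (SE 0.07). Rad52 and Xpc were the 2 that increased (0.23 and 0.17). Between the late phase and days 1 and 2 the response was higher for 4 members and lower for 3 (16.3% and 12.2% of all genes).

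Genes of cell division moved on the same days. A list of 39 mitosis genes, none of them a repair gene of the 38, had 16 lower and none higher at day 1 (median -0.38), 38 higher at day 7 (median 1.72), all 39 higher at day 14 (median 1.60) and 36 higher at day 21 (median 0.77). Of 33 DNA replication genes 31 were higher at day 7 (median 0.74), where 25.7% of all genes were. Averaged per mouse as a mitosis score, the 39 genes lay between -0.48 and -0.16 in saline mice and between 0.98 and 1.45 in bleomycin mice at day 7, and at day 35 between -0.55 and -0.10 and between -1.28 and 1.41.

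Within groups, mice with a higher mitosis score had higher levels of recombination genes. Levels and scores were taken as deviations from the group mean of each day, in 56 bleomycin and 55 saline mice apart, and 76 relations were tested by permutation within groups. In bleomycin mice 16 members correlated positively and 6 negatively by both Pearson's r and Spearman's rho after adjustment. The positive ones held 10 of 11 recombination genes. The share of all genes that correlate with the score was not computed for either treatment, so the counts have no background beside them. Rad51ap1 had r = 0.95 and rho = 0.89, Brca1 0.92 and 0.91, Exo1 0.90 and 0.87, Rad54l 0.85 and 0.77, Fancd2 0.80 and 0.74, and Chek1 0.78 and 0.75 (permutation p = 1e-05 for each, the smallest 100000 permutations can give, adjusted p of 6.91e-05 for r and 7.6e-05 for rho). Without the 2 mice of the most extreme scores r was 0.91, 0.92, 0.90, 0.82, 0.78 and 0.70 in the same order. Taken day by day in 8 mice, r was positive on all 7 days for each of these genes, from 0.02 (day 1) to 0.99 for Rad51ap1 and from 0.40 (day 1) to 0.99 for Brca1.
Xpc and Ddb2 ran the other way in bleomycin mice (r = -0.62 and -0.44, rho = -0.62 and -0.48, permutation adjusted p of 6.91e-05 and 0.00283 for r), as did Rad52 (r = -0.46, rho = -0.44, permutation adjusted p = 0.00525) and Fancc (r = -0.39, rho = -0.44, permutation adjusted p = 0.00255). In saline mice 5 members correlated positively (Brca1 at r = 0.79, Exo1 at 0.60, Rad51ap1 at 0.59, Bard1 and Fancd2 at 0.43) and none negatively. Without the 2 farthest scores r was 0.74, 0.52, 0.55, 0.39 and 0.36 in that order.

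**Figure D4:**
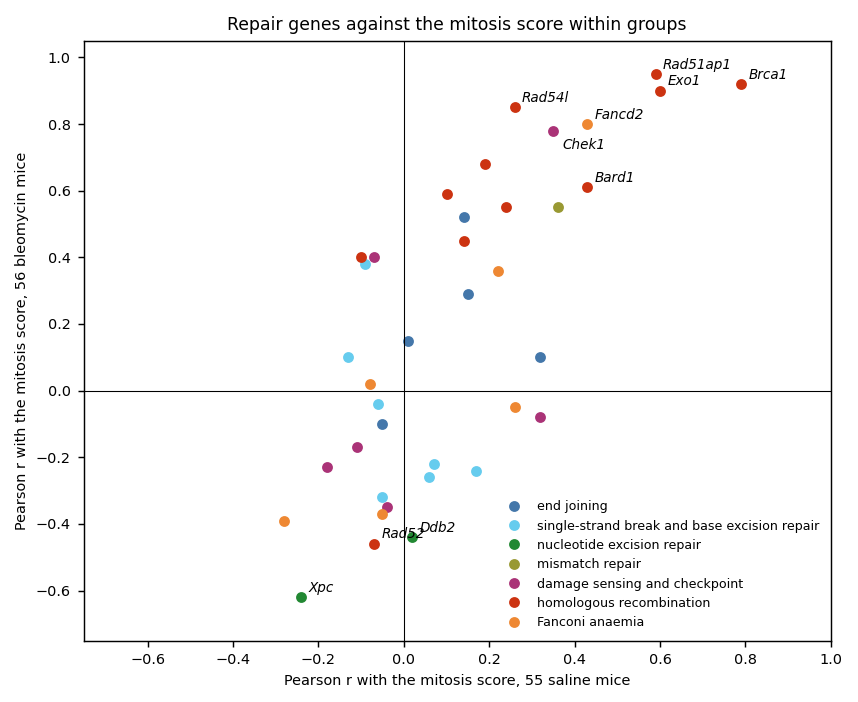
Pearson correlation of each of 38 repair genes with the mitosis score after removal of group means, in 55 saline mice (horizontal) and 56 bleomycin mice (vertical), coloured by role. Rad51ap1, Brca1 and Exo1 stand at the upper right, high in both treatments, while Xpc, Ddb2 and Rad52 stand at the bottom, negative in bleomycin mice.

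With the mitosis score in the limma fit, differences at days 7 and 14 shrank. At day 7 2 members remained higher (Aptx at 0.23 and Palb2 at 0.28) and none lower, and at day 14 none was called. Without replicate 3 of the bleomycin mice of day 35, whose score enters the slope, the day 7 values of Aptx and Palb2 were 0.21 and 0.29 and not called (adjusted p = 0.0924 and 0.0563), and Atm was lower (-0.31, adjusted p = 0.034). The share of all genes called fell as well, to 3.23% higher and 1.42% lower at day 7 and to 0.446% and 0.121% at day 14. On these days the score itself separated every bleomycin mouse from every saline mouse. Brca1 went from 1.48 to 0.03 (SE 0.10), Rad51ap1 from 1.90 to -0.13 (SE 0.16), Exo1 from 1.59 to 0.31 (SE 0.11) and Chek1 from 1.50 to 0.27 (SE 0.18) at day 7, while Polb stood at -0.38 (SE 0.13, adjusted p = 0.0845). Treatment and the score cannot be told apart at days 7 and 14 beyond what the slope within groups gives.
At day 35, where scores overlapped, all 7 members higher and 7 of the 8 lower without the score were called the same way with it, where 16.1% of all genes were higher and 11.7% lower. Exo1 (0.28) and Fancc (-0.43) were among them. At day 1, where mitosis genes were lower, 8 more members were called with the score and 1 (Polb) lost its call, making 6 higher and 9 lower, where 17.7% and 19.4% of all genes were. The 8 included Chek1 at 0.50 (adjusted p = 0.000916) and Exo1 at 0.33 (adjusted p = 0.000607). At day 1 the score again separated the groups, at -0.87 to -0.57 in bleomycin mice and -0.53 to -0.06 in saline mice. Treatment and score therefore cannot be told apart on that day either, beyond what the slope within groups gives.

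**Figure D5:**
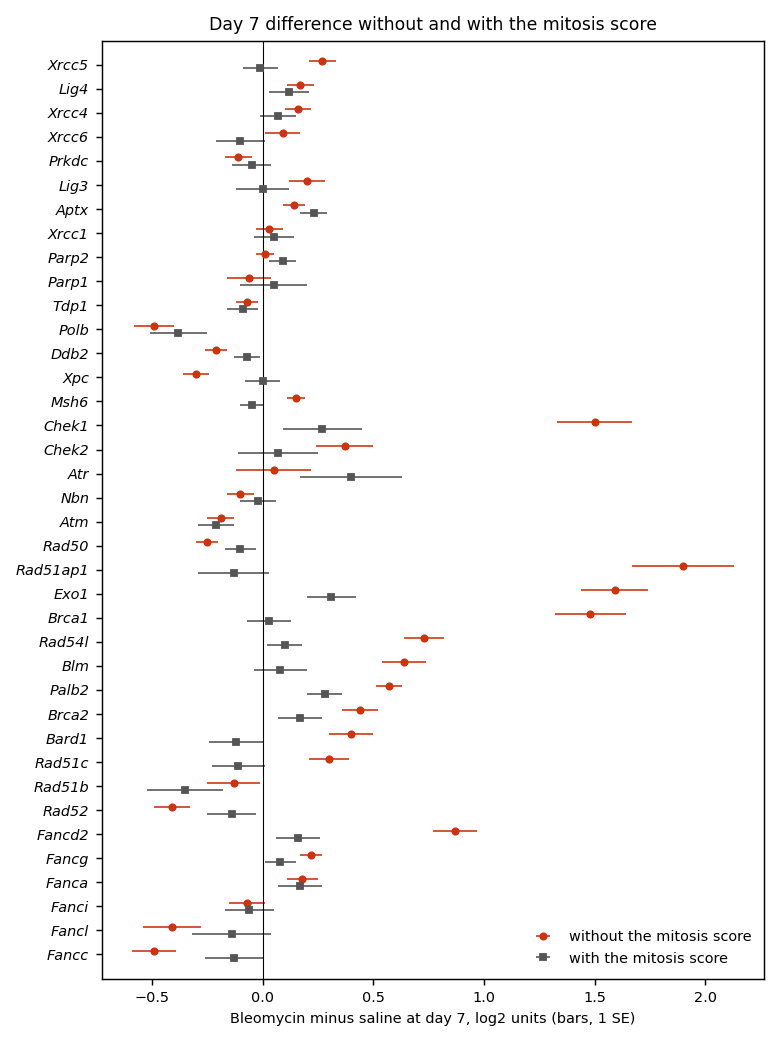
Difference between bleomycin and saline mice at day 7 for 38 repair genes, by role from top to bottom, from the fit without (red circles) and with (grey squares) the mitosis score; bars are 1 SE. The red points of Rad51ap1, Exo1, Brca1 and Chek1 lie near 1.5 or above and their grey points between -0.13 and 0.31, while Aptx, Polb and Atm move little.

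Repair genes outside the 38 also went both ways. Of 77 such genes 26 were higher and 13 lower at day 7, where 25.7% and 21.9% of all genes were. At day 14 there were 24 and 10, beside 21.9% and 19.7% of all genes. The 15 other recombination genes had 8 higher and 1 lower at day 7, with a median of 0.08 at days 7 and 14. The 15 other genes of base excision and single-strand break repair had 6 higher and 3 lower at day 7, with medians of 0.11 and 0.16. Averaged per mouse, the 2 lists differed from saline by 0.34 and 0.21 at day 7. The larger median of recombination genes among the 38 was thus not seen in these lists. Large increases at day 7 were in Clspn, an adaptor of Chek1 (2.09, SE 0.21), the glycosylase gene Neil3 (1.44, SE 0.16), Rad54b (1.42, SE 0.20), Brip1, a helicase that binds Brca1 (1.26, SE 0.15), and Ung, which removes uracil from DNA (0.93, SE 0.13). In the Fanconi pathway Ube2t, which carries ubiquitin to Fancd2, was higher (1.11 at day 14, SE 0.13) and Fancb lower (-0.42 at day 14, SE 0.10). Mre11a, the third partner of Rad50 and Nbn, was higher at day 7 (0.58, SE 0.07) while Rad50 was lower. Of 15 other excision repair genes of the nucleotide pathway 3 were higher and 3 lower at day 7, beside 25.7% and 21.9% of all genes. Xpa, a damage verification factor, was among those lower (-0.31, SE 0.09).

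Cell markers moved on the same days, and their part in the repair gene differences was not tested. At day 7, 11 of 12 macrophage markers were higher (median 1.24), and the mean of the list lay between 0.61 and 1.22 in bleomycin mice and between -0.63 and -0.29 in saline mice. Of 11 endothelial markers 9 were lower and 1 higher (median -0.40), with list means of -0.40 to -0.09 in bleomycin mice and -0.14 to 0.19 in saline mice. Of 10 fibroblast markers 6 were higher and 1 lower, with list means of 0.14 to 0.47 and -0.27 to 0.15. Of 7 B cell markers 5 were lower (list means of -0.78 to 0.46 against 0.23 to 0.87) and of 7 NK cell markers 6 (-0.51 to 0.35 against 0.00 to 0.71). Of 12 alveolar epithelial markers 1 was higher and 6 lower (-0.34 to 0.09 against -0.10 to 0.08), and of 10 neutrophil markers 3 were higher and 3 lower (-0.14 to 0.57 against -0.60 to 1.19). Both erythroid markers were lower (median -1.80), and all 8 bleomycin mice lay below the saline range (-1.88 to -0.51 against -0.46 to 1.46). Of 7 airway epithelial markers 2 were lower, of 6 plasma cell markers 2 were higher, and none of 9 T cell markers was called. Among all genes 25.7% were higher and 21.9% lower at day 7.

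Repair genes also differed among saline mice of different days. By the limma F test 18 of 38 members (47.4%) differed between the 7 saline groups, where 54.1% of all genes did. Xrcc1 (9.53 to 10.06), Polb (8.47 to 9.05), Fancc (7.98 at day 7 to 8.58 at day 1) and Atr had the smallest adjusted p. Chek1 was also among the 18 (range of the saline means 0.62, lowest at day 1, adjusted p = 0.00652). Rad51ap1, Brca1, Exo1 and Fancd2 were not, with ranges of the saline means of 0.39, 0.24, 0.35 and 0.22.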

How the data were processed

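Lung RNA had been amplified by the authors and measured, 1 mouse each, on an Affymetrix whole-genome mouse array. They remapped probes to the genome (build not given in the sources used here), dropped ambiguous probes, and the authors deposited log2 RMA values. Array medians ran from 8.614 to 8.731. Their number limits the precision, and no read depth applies. Replicates are separate mice. Of 32688 probesets, 314 named several genes and 4503 none, and were left out. The 38 members had 73 probesets (20 members had several), and the most variable one stood for a gene. A limma 3.58.1 model (R 4.3.3) with 1 mean per group gave bleomycin minus saline on each day, differences between periods and the saline F test, adjusted over 15707 genes by Benjamini and Hochberg. Scripts were tested on simulated data. Mitosis score correlations were tested by permutation (two-sided). Members and lists were chosen with earlier results of these data known. Values by mouse are given for the largest called increase and decrease of each role and up to 2 more by adjusted p. Of other lists, genes called at day 7 or 14 with the largest change are named. Other genes named beside counts were chosen after their values were seen. Alternatives were other probesets, normalization, a filter on dim genes, all saline mice as control, one fit per day, array weights, a replicate block, a replication score and 2 left-out arrays, of which bleomycin replicate 4 of day 21 was chosen after seeing the data.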

Additional observations from a re-analysis of the deposited data

Results flagged for a closer look

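In 3 of 44 groups of mice behind the genes given by mouse, 1 mouse stood apart from the rest by Dixon's criterion, which chance alone meets in about 1 of 20 groups. Xrcc5 was 10.47 in replicate 5 of the saline mice of day 21, where the median of the others was 10.19. Rad51b was 7.82 in replicate 6 of the bleomycin mice of day 2, against a median of 7.35 for the others. Fancd2 was 5.87 in replicate 6 of the saline mice of day 7, against 6.32.

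The response to bleomycin differed between periods by a direct contrast in limma for 19 members between days 7 and 14 and days 1 and 2, for 13 between the late days and days 7 and 14, and for 7 between the late days and days 1 and 2. Rad51b, lower at days 1 and 2 and not called from day 7, and Polb, higher at day 1 (not so against all saline mice) and lower from day 7, were among the 19.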

How the results depend on the processing

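Of the values of called member and day pairs recomputed under alternatives, 1066 kept their direction and call, 70 were no longer called and 6 reversed. With the brightest probeset Lig3 stood at -0.04 at day 7 and -0.03 at day 28, Polb at 0.01 at day 14 and 0.09 at day 35, and Fancl at 0.17 at day 7, and against all saline mice Polb stood at -0.1 at day 1. The brightest probeset left 4 members lower at day 7 and 2 at day 14, 2 higher at day 28, 2 lower between days 7 and 14 and days 1 and 2, and 1 higher from days 7 and 14 to the late days, but 8 higher from days 1 and 2 to the late days. The mean of probesets gave 4 higher and 10 lower at day 1, 2 higher at day 28 and 7 higher from days 1 and 2 to the late days. Quantile normalization gave 4 higher at day 1, 4 higher from days 7 and 14 to the late days, and 1 higher and 1 lower at day 7 with the mitosis score. One fit per day and array weights each gave 1 higher at day 1. All saline mice as control gave 3 lower at day 1, and 8 higher and 8 lower at day 28. Without the dimmest 30% of genes 2 were higher at day 28, and the recombination and Fanconi median minus the end joining and excision median was -0.14 at day 1. With more than 2-fold required as well, 4 members were higher at day 7 and 4 at day 14, and 0 in every other day and direction. With a DNA replication score in place of the mitosis score 0 members were higher at day 7 and 1 at day 14. Without bleomycin replicate 4 of day 21 or replicate 3 of day 35 members higher at day 7 with the mitosis score numbered 2 and 0, and members lower 0 and 1. Other counts under these 2 omissions stayed within 1.5 times. The causes were not tested, apart from the fewer genes or calls that a filter or fold requires.

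Replicate numbers did not pair the mice: deviations from group means of same-numbered bleomycin and saline mice correlated at -0.328 to 0.408 (median 0.0601) in 55 pairs, 23 of them over 0.1. With the replicate number as a block 20 members were higher and 8 lower at day 7, and 14 and 7 at day 14, and no called member and day pair was lost. The 8 members among the dimmest 30% (level under 6.94), Xrcc6, Lig3, Chek1, Bard1, Exo1, Fanca, Fancd2 and Fanci, had the weakest signal.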
